A study of Homo sapiens with 6 samples.

Results

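The genes encoded in the mitochondrial genome were followed in H460 cells, a non-small-cell lung cancer cell line, after knockdown of the long intergenic noncoding RNA *HKlincR1* (AC093323.3). The genes were taken by name, as every entry of the deposited expression values whose symbol in the GENCODE 44 annotation of GRCh37 starts with MT-. This gave 37 of the 57773 listed genes, namely 13 mRNA genes, 2 rRNA genes and 22 tRNA genes. The rule used names and no measured value, although the genes and lists were chosen with earlier results of these data known.

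The study set out to profile gene expression after loss of *HKlincR1* with RNA-seq. There were 3 libraries of cells given a non-targeting siRNA (siNT) and 3 of cells given the siRNA si*HKlincR1*_2 against *HKlincR1* (siHKlincR1). The siRNAs were used at 50 nM and the cells were collected after 48 h. The libraries are described as biological replicates of 1 cell line, were made from polyadenylated RNA with a strand-specific kit, and give levels as RPKM (reads scaled by the length of the gene model and by the size of the library).

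The mitochondrial genome is a small circle that is read from both strands into long precursor RNAs. The tRNAs that lie between most of its mRNAs and rRNAs are cut out of these precursors, which sets the other RNAs free, and most of the mRNAs then receive a short poly(A) tail. The mRNAs encode subunits of complexes I, III, IV and V of oxidative phosphorylation, which are built together with many subunits encoded in the nucleus, whereas complex II is wholly nuclear. The rRNAs and tRNAs serve the ribosomes that translate these mRNAs inside the organelle.

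The layout of the genes bears on every value that follows, since the RPKM of neighbouring genes is measured on RNA cut from shared precursors. The reference mitochondrial genome of GRCh37 (chrM) has 16569 bases, and 20 of the 36 junctions between consecutive genes have no base between them. At 5 junctions the genes overlap. Of the 13 mRNA genes, 6 end in an incomplete stop codon (a single T in 5 of them and TA in MT-ND1), which the poly(A) tail is known to complete. The 3′ ends of these mRNA genes are shown because the libraries were selected on that tail. Each line reads 5′ to 3′ on the strand of the gene, with the last bases of the reading frame in capitals and the 12 bases that follow the gene after them.
MT-ND1 (chrM:4251-4274, plus strand): ccctcaaaccTAagaaatatgtct
MT-ND2 (chrM:5500-5523, plus strand): taataatcttaTagaaatttaggt
MT-CO3 (chrM:9979-10002, plus strand): gatgagggtctTactcttttagta
MT-ND3 (chrM:10393-10416, plus strand): actgaaccgaaTtggtatatagtt
MT-ND4 (chrM:12126-12149, plus strand): ggttttcctctTgtaaatatagtt
MT-CYB (chrM:15876-15899, plus strand): tcaaatgggccTgtccttgtagta

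MT-ND5 and MT-ND6 are the mRNA genes that face each other. MT-ND6 is the single mRNA gene on the minus strand, and the last base of MT-ND5 adjoins the last base of MT-ND6. The same 24 bases therefore hold both 3′ ends, printed here once for each strand with the final codon of the gene in capitals.
MT-ND5 (chrM:14137-14160, plus strand): ctaatcacaTAAcctattcccccg
MT-ND6 (chrM:14137-14160, minus strand): cgggggaatAGGttatgtgattag

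Reading frames also overlap on the plus strand, and the shared bases are shown in capitals with the bases on either side. MT-ATP8 and MT-ATP6 share 46 bases, and MT-ND4L and MT-ND4 share 7 bases. No tRNA gene lies between the genes of either pair. All values are given per gene, and those within such a pair are not taken as levels of separate RNAs. How the counting assigned reads in these overlaps is not given in the sources used here.
MT-ATP8 end and MT-ATP6 start (chrM:8517-8582): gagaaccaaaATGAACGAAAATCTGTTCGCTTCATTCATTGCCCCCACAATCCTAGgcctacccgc
MT-ND4L end and MT-ND4 start (chrM:10750-10776): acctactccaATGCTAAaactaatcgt

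The libraries held 24980280 to 30521000 reads, as worked back from the RPKM values. *HKlincR1* itself had 3.62, 3.47 and 3.83 RPKM in siNT replicates 1 to 3 and 0.563, 0.628 and 0.390 RPKM in siHKlincR1 replicates 1 to 3, a mean that was 85.5% lower (limma adjusted p = 0.00245). Of 5 epithelial markers, KRT8, KRT18 and KRT19 had 31.5, 82.4 and 41.6 RPKM in siNT, while EPCAM (0.0556 RPKM) and CDH1 (0 RPKM) were near 0 or at 0. Markers of other cell types were below 0.2 RPKM in the mean of siNT, except the collagen genes COL1A1 (1.10 RPKM) and COL3A1 (14.3 RPKM). After siHKlincR1, COL1A1 had 0.580 RPKM and COL3A1 18.6 RPKM (limma adjusted p = 0.196 and 0.210, or 0.0807 and 0.0444 in a fit blocked on replicate number). Neither collagen gene had overlapping groups, and their part in the results below was not tested.

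Mitochondrial transcripts took a large share of all RPKM in these cells, and the share was higher in each siHKlincR1 library than in each siNT library. The 37 genes made up 14.7%, 13.8% and 15.2% of total RPKM in siNT replicates 1 to 3 and 15.7%, 16.3% and 19.1% in siHKlincR1 replicates 1 to 3. The groups did not overlap, and the gap was widest for siHKlincR1 replicate 3. The mean was 14.5% ± 0.705 with siNT and 17.0% ± 1.79 with siHKlincR1 (SD, n = 3), a difference of 2.49 percentage points (p = 0.10 by an exact two-sided permutation test, which cannot go lower with 3 libraries a group). Without siHKlincR1 replicate 3 the difference was 1.47 percentage points. In bulk RNA, more mitochondrial RNA per cell and less RNA from other genes give the same share and cannot be told apart.

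RPKM weights a short gene as much as a long one, so the share was also taken over reads. The same genes drew 4.04%, 3.67% and 4.16% of library reads with siNT and 4.41%, 4.44% and 5.37% with siHKlincR1, again without overlap. The order of the libraries by group was thus the same on both scales, although the share of reads was less than that of RPKM in each library.

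**Figure D1:**
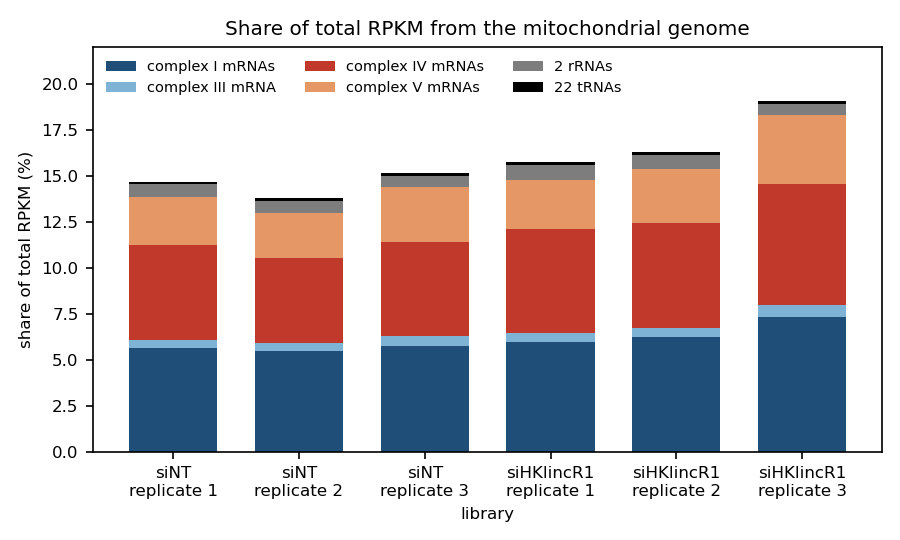
Stacked bars give the percentage of total RPKM from the mitochondrial genome in each of the 6 libraries, split into the mRNAs of complexes I, III, IV and V, the 2 rRNAs and the 22 tRNAs. The siNT bars reach 13.8% to 15.2% and the siHKlincR1 bars 15.7% to 19.1%, with siHKlincR1 replicate 3 the highest.

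The mRNAs made up nearly all of that share. The 13 mRNAs took 13.84%, 12.96% and 14.40% of total RPKM in siNT and 14.80%, 15.38% and 18.30% in siHKlincR1, without overlap between groups (exact permutation p = 0.10). The 7 complex I mRNAs, which encode subunits of the enzyme that takes electrons from NADH, took 5.62%, 5.48% and 5.75% with siNT and 5.98%, 6.23% and 7.30% with siHKlincR1. The 3 complex IV mRNAs, for the core of cytochrome c oxidase, took 5.18%, 4.66% and 5.11% with siNT and 5.65%, 5.71% and 6.61% with siHKlincR1. For both complexes the siHKlincR1 libraries all lay above the siNT libraries (exact permutation p = 0.10 each).

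The mean shares of complexes III and V were also higher with siHKlincR1, but their groups overlapped. MT-CYB, the mitochondrial subunit of complex III, took 0.455%, 0.413% and 0.567% of total RPKM with siNT and 0.468%, 0.507% and 0.650% with siHKlincR1 (exact permutation p = 0.5). MT-ATP6 and MT-ATP8, the complex V mRNAs, took 2.58%, 2.41% and 2.98% with siNT and 2.69%, 2.93% and 3.74% with siHKlincR1 (exact permutation p = 0.3). In both cases siNT replicate 3 was above siHKlincR1 replicates 1 and 2. Between libraries of equal replicate number, both shares were higher with siHKlincR1 each time. The differences were 0.01331, 0.09335 and 0.08314 percentage points for MT-CYB and 0.1074, 0.5168 and 0.7595 for complex V. The limma log2 fold changes were of similar size, with medians of 0.24, 0.26 and 0.27 for complexes I, IV and V and 0.22 for MT-CYB. The overlap is therefore not read as a difference between complexes.

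The mRNA levels formed 4 steps in siNT cells. MT-ND4 (5815 ± 242 RPKM), MT-CO2 (5614 ± 408), MT-ND4L (5542 ± 377), MT-CO1 (5250 ± 377), MT-ATP6 (4639 ± 514), MT-CO3 (4403 ± 421) and MT-ATP8 (3513 ± 514) formed the highest step (SD, n = 3). Neighbours within this order overlapped in their ranges over the libraries. The ranges separated below MT-ATP8, and the next step held MT-ND1 (1808 ± 410 RPKM), MT-ND2 (1776 ± 325) and MT-CYB (1467 ± 268). MT-ND5 (1018 ± 57.3 RPKM) and MT-ND3 (941 ± 110) formed the step below, and MT-ND6 was last at 294 ± 9.26 RPKM. Since the libraries were selected for poly(A) tails, these are levels of mRNA that passed that selection. Tails were not measured, so the place of MT-ND6 or any other mRNA in this order may differ in total RNA.

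These levels were at the very top of the cells' expression. Among all 57773 genes ranked by mean RPKM in siNT, MT-ND4 was at rank 1 and 8 of the 10 highest genes were mitochondrial mRNAs. Of the 50 highest genes, 12 were mitochondrial mRNAs, and MT-ND6 followed at rank 107. Genes of the same precursor thus differed widely in level, and members of one complex stood in different steps, as MT-ND4 and MT-ND5 did for complex I.

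**Figure D2:**
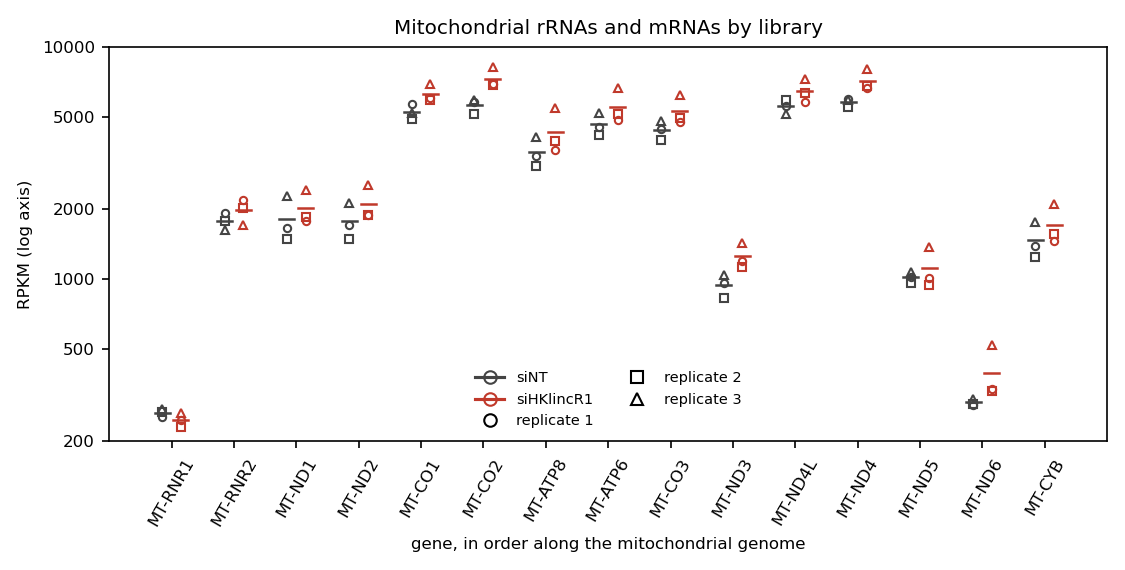
RPKM on a log axis for the 2 rRNAs and 13 mRNAs in their order along the mitochondrial genome, with 1 point per library (circle, square and triangle for replicates 1, 2 and 3) and a line at the group mean. Triangles of siHKlincR1 are the highest points of all 13 mRNAs, and the groups do not overlap for MT-CO1, MT-CO2, MT-ND3, MT-ND4 and MT-ND6.

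No mitochondrial mRNA passed the test after siHKlincR1, although all 13 had a log2 fold change above 0. The median log2 fold change of the 13 was 0.26 (range 0.11 to 0.41), beside 0.0011 over the 15451 tested genes. Calls required a limma p under 0.05 after Benjamini-Hochberg adjustment together with a fold above 1.5. By this rule 0 of the 13 mRNAs were called, where 56 (0.362%) of all tested genes were, a number that ranged from 7 to 520 as each library was left out in turn. With a block for the replicate number limma again called 0 of the 13, where it called 204 (1.32%) of all tested genes. At an unadjusted p under 0.05, 4 of the 13 were higher in the fit without the block (7.04% of all tested genes were) and 10 of the 13 with it (12.3%). Limma's voom on the reads gave no call among the 13, and 7 of them were higher at an unadjusted p under 0.05. The share of all tested genes at that p was not taken for voom.

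The direction was the same in each pair of same-numbered libraries for nearly all of the 13 mRNAs. That equal numbers belong together is not stated in the sources used here. In replicate pairs 1, 2 and 3 the siHKlincR1 library was above its siNT library for 12, 12 and 13 of the mRNAs, with median log2 differences of 0.10, 0.32 and 0.42. The corresponding medians over all tested genes were 0.0040, -0.0067 and -0.0020. The groups did not overlap for 5 of the 13 mRNAs, all with higher siHKlincR1 libraries, beside 10.1% of all tested genes. Without siHKlincR1 replicate 3 the median of the 13 was 0.14, with 12 above 0. The 13 values are not independent of each other, since the mRNAs come from shared precursors.

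**Figure D3:**
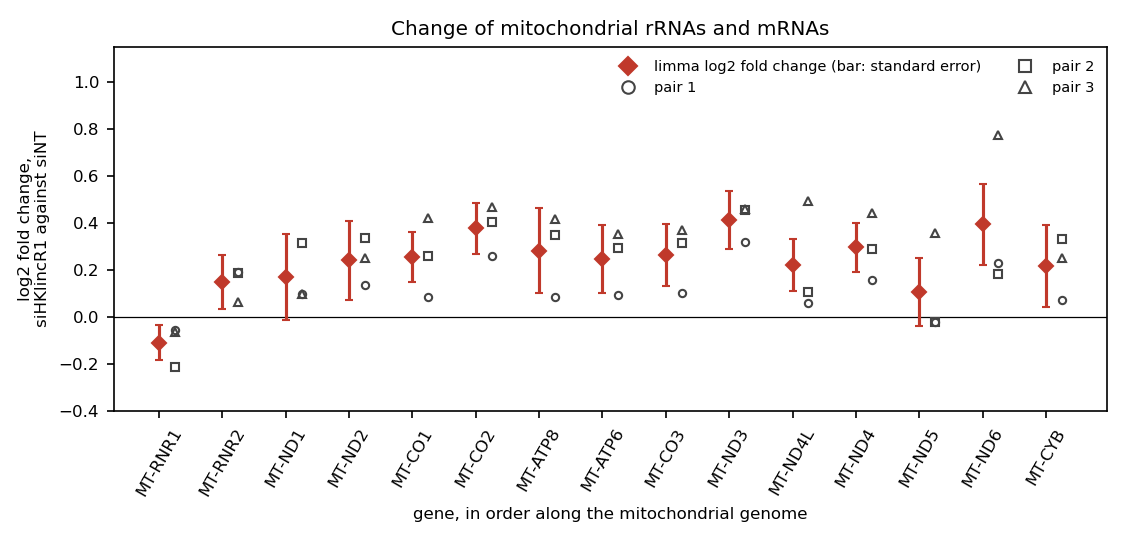
Diamonds give limma's log2 fold change (siHKlincR1 against siNT) with its standard error for the 2 rRNAs and 13 mRNAs, and open symbols give the log2 ratio within each same-numbered pair of libraries. All 13 mRNA diamonds lie between 0.11 and 0.41, MT-RNR1 lies at -0.11, and pair 3 of MT-ND6 is the highest point at 0.78.

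Leaving out siHKlincR1 replicate 3 gave the lowest log2 fold change of each of the 13 mRNAs among the 6 libraries left out in turn. It lowered MT-ND1 to 0.03, MT-CYB to 0.06, MT-ND2 and MT-ATP8 to 0.10, MT-ATP6 to 0.11, MT-ND4L and MT-CO3 to 0.14 and MT-ND6 to 0.18, each by more than 1.5 times, and MT-ND5 to -0.06. MT-CO1 (0.18), MT-ND4 (0.21), MT-CO2 (0.30) and MT-ND3 (0.31) moved less. The highest values reached 0.51, for MT-ND6 without siHKlincR1 replicate 2, and without siNT replicate 3 MT-ND1 was at 0.35, MT-CYB at 0.36 and MT-ND2 at 0.38.

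Within complex I, MT-ND3 and MT-ND6 had the largest log2 fold changes with all libraries, although MT-ND6 was below MT-ND4 without siHKlincR1 replicate 3. MT-ND3, a small membrane subunit, had 959, 824 and 1041 RPKM in siNT replicates 1 to 3 and 1198, 1130 and 1433 RPKM in siHKlincR1 replicates 1 to 3. All siHKlincR1 values were above all siNT values, with a log2 difference of 0.41 (SE 0.12, limma adjusted p = 0.221). Under the replicate block this adjusted p was 0.0431, the single value under 0.05 among the mRNAs, and the fold change stayed under 1.5.

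MT-ND6 had 287, 289 and 304 RPKM with siNT and 337, 329 and 521 RPKM with siHKlincR1 (log2 fold change 0.40, SE 0.17, limma adjusted p = 0.313). The groups did not overlap, and siHKlincR1 replicate 3 stood far above replicates 1 and 2. The values of MT-ND6 rest on 3988 to 8178 reads a library. Whether the counting used the strand of the reads is not given in the sources used here, and reads of the opposite strand, which carries the precursor of the other mRNAs, cannot then be told apart from those of MT-ND6.

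MT-ND4, a membrane subunit of the proton-pumping arm, had 5985, 5538 and 5922 RPKM with siNT and 6688, 6770 and 8053 RPKM with siHKlincR1 (log2 fold change 0.30, SE 0.10, limma adjusted p = 0.261). No siNT library reached the siHKlincR1 range. MT-ND4L, which shares 7 bases with MT-ND4 in the stretch printed above, had 5576, 5901 and 5150 RPKM with siNT and 5815, 6364 and 7262 RPKM with siHKlincR1 (log2 fold change 0.22, limma adjusted p = 0.360). Here siNT replicate 2 was above siHKlincR1 replicate 1, so the groups overlapped.

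The other complex I mRNAs overlapped between groups as well. MT-ND1 had 1665, 1489 and 2271 RPKM with siNT and 1784, 1855 and 2429 RPKM with siHKlincR1 (log2 fold change 0.17, limma adjusted p = 0.653). MT-ND2 had 1707, 1492 and 2130 RPKM with siNT and 1878, 1886 and 2536 RPKM with siHKlincR1 (log2 fold change 0.24, limma adjusted p = 0.489). In both genes replicate 3 was the highest library of each group.

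MT-ND5, the longest mitochondrial mRNA gene at 1812 bases, had the smallest log2 fold change of the 13. Its levels were 1024, 958 and 1072 RPKM with siNT and 1010, 944 and 1375 RPKM with siHKlincR1 (log2 fold change 0.11, SE 0.14, limma adjusted p = 0.723). In replicate pairs 1 and 2 the siHKlincR1 library was the lower one.

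For complex IV, MT-CO2 had the largest difference. This gene, which encodes the subunit that receives electrons from cytochrome c, had 5781, 5149 and 5911 RPKM with siNT and 6925, 6826 and 8179 RPKM with siHKlincR1. Every siHKlincR1 library was above every siNT library, and the log2 fold change was 0.38 (SE 0.11, limma adjusted p = 0.211, and 0.0581 with the replicate block).

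MT-CO1, the catalytic subunit, had 5655, 4909 and 5185 RPKM with siNT and 5999, 5881 and 6955 RPKM with siHKlincR1 (log2 fold change 0.26, SE 0.11, limma adjusted p = 0.301), again without overlap. MT-CO3, also a core subunit, had 4435, 3968 and 4808 RPKM with siNT and 4758, 4945 and 6222 RPKM with siHKlincR1 (log2 fold change 0.26, SE 0.13, limma adjusted p = 0.356). The groups overlapped, as siNT replicate 3 was above siHKlincR1 replicate 1.

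The mRNAs of complexes III and V had log2 fold changes of 0.22 to 0.28 with all libraries, each at 0.11 or lower without siHKlincR1 replicate 3. MT-CYB, or cytochrome b, had 1392, 1245 and 1765 RPKM with siNT and 1463, 1567 and 2101 RPKM with siHKlincR1 (log2 fold change 0.22, SE 0.18, limma adjusted p = 0.548). MT-ATP6, part of the proton channel of ATP synthase, had 4536, 4184 and 5196 RPKM with siNT and 4839, 5133 and 6636 RPKM with siHKlincR1 (log2 fold change 0.25, SE 0.15, limma adjusted p = 0.419). MT-ATP8, a small subunit that overlaps MT-ATP6, had 3377, 3081 and 4080 RPKM with siNT and 3580, 3925 and 5449 RPKM with siHKlincR1 (log2 fold change 0.28, SE 0.18, limma adjusted p = 0.447). In each of the 3 genes siNT replicate 3 lay above siHKlincR1 replicates 1 and 2.

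Ratios within a library compare mitochondrial RNAs with each other and do not depend on the scaling of the library. The ratio of complex I to complex IV mRNAs (geometric means of the plus-strand members) was 0.405, 0.423 and 0.443 with siNT and 0.399, 0.400 and 0.422 with siHKlincR1, and the groups overlapped (exact permutation p = 0.2). MT-ND6 stood at 0.101, 0.112 and 0.0969 of the geometric mean of the other 12 mRNAs with siNT and at 0.109, 0.104 and 0.129 with siHKlincR1, also with overlap (exact permutation p = 0.3). Neither ratio separated the groups. Between same-numbered libraries the complex I to complex IV ratio was lower with siHKlincR1 each time (log2 differences -0.02, -0.08 and -0.07). The MT-ND6 ratio went both ways (0.11, -0.10 and 0.41).

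As shares of the summed RPKM of the 13 mRNAs, 3 members did separate the groups. MT-CO2 took 13.64%, 13.19% and 13.18% with siNT and 14.97%, 14.35% and 13.83% with siHKlincR1. MT-ND3 took 2.26%, 2.11% and 2.32% with siNT and 2.59%, 2.38% and 2.42% with siHKlincR1. MT-ND5 went the other way, with 2.42%, 2.45% and 2.39% with siNT and 1.99% to 2.32% with siHKlincR1. For 3 libraries against 3 such a separation reaches no exact permutation p under 0.10. Over all tested genes, the groups separated in RPKM for 10.1% with siHKlincR1 higher and for 11.9% with it lower. The count of 3 of the 13 is near that background and is not read as particular to these members. The shares add up to the whole, so a rise in some members goes with a fall in others.

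The rRNAs had log2 fold changes on either side of 0. MT-RNR1, the rRNA of the small ribosomal subunit (chrM:648-1601), had 255, 267 and 276 RPKM with siNT and 246, 230 and 264 RPKM with siHKlincR1 (log2 fold change -0.11, SE 0.07, limma adjusted p = 0.478). It was lower in each of the 3 pairs, and the groups overlapped. MT-RNR2, the rRNA of the large subunit (chrM:1671-3229), had 1926, 1779 and 1634 RPKM with siNT and 2199, 2026 and 1711 RPKM with siHKlincR1 (log2 fold change 0.15, SE 0.12, limma adjusted p = 0.534). It was higher in each of the 3 pairs, but replicate 3 was the lowest library of each group, where it was the highest for most mRNAs.

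The rRNA to mRNA ratio, over the summed RPKM of the 2 rRNAs and the 13 mRNAs, was 0.0515, 0.0524 and 0.0426 with siNT and 0.0528, 0.0474 and 0.0334 with siHKlincR1. The groups overlapped (log2 difference -0.15, exact permutation p = 0.7), and replicate 3 was the lowest of each group. Since the libraries were selected for poly(A) tails, these are levels of rRNA that passed that selection and not of all rRNA. Without siHKlincR1 replicate 3 the log2 difference was 0.04, the opposite sign. MT-RNR2 makes up most of the summed rRNA. The ratio of MT-RNR1 to the 13 mRNAs, added after the values were seen, was 0.00602, 0.00683 and 0.00615 with siNT and 0.00531, 0.00484 and 0.00446 with siHKlincR1. It was lower in each pair and the groups did not overlap, with a log2 difference of -0.38 (exact permutation p = 0.10).

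The tRNAs gave few reads. The 22 genes are 59 to 75 bases long, 8 of them lie on the minus strand, and the sequenced reads had 75 bases. Since the libraries were selected for poly(A) tails, the values are not levels of all tRNA. Reads from uncut or neighbouring RNA cannot be told apart from those of cut tRNAs. With siNT the 22 genes together had 777, 858 and 806 reads, and with siHKlincR1 949, 1112 and 1092 reads. MT-TL1, the leucine tRNA gene that adjoins MT-RNR2, held most of these reads, and its sequence is printed because it stands apart from the rest.
MT-TL1 (chrM:3230-3304, plus strand): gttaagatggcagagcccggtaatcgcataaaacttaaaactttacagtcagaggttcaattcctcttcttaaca

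MT-TL1 had 557, 598 and 584 reads with siNT and 646, 796 and 721 reads with siHKlincR1, or 268, 261 and 312 RPKM against 303, 367 and 321 RPKM. The groups overlapped in RPKM (log2 fold change 0.24, SE 0.10, limma adjusted p = 0.312). All other 21 tRNA genes together had 220, 260 and 222 reads with siNT and 303, 316 and 371 reads with siHKlincR1. In 5 tRNA genes no library had more than 3 reads, which was taken as the floor of detection, and MT-TS2 had 0 reads in each library.

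After MT-TL1, the highest tRNA genes were MT-TQ, MT-TM, MT-TP and MT-TE, the genes for the glutamine, methionine, proline and glutamate tRNAs. MT-TM had 20, 24 and 34 reads with siNT and 28, 38 and 53 reads with siHKlincR1, with overlap between groups (log2 fold change 0.52, limma adjusted p = 0.393, and 0.0493 with the replicate block at a fold under 1.5). The SE of MT-TM was 0.08 with the block and 0.32 with voom on the reads (voom adjusted p = 0.407). MT-TE had 19, 39 and 17 reads with siNT and 24, 42 and 45 reads with siHKlincR1 (log2 fold change 0.54, limma adjusted p = 0.404). MT-TQ (log2 fold change 0.04) and MT-TP (-0.18) had 26 to 47 reads in each library and overlapped between groups.

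The tested tRNA genes with the largest log2 fold changes each had at most 13 reads in any library. MT-TC, for cysteine, had 3, 0 and 2 reads with siNT and 7, 4 and 6 with siHKlincR1, and its fitted log2 fold change moved from 1.11 to 3.41 as the pseudocount went from 1 to 0.01. MT-TF, for phenylalanine, had 4, 10 and 1 reads with siNT and 12, 9 and 13 with siHKlincR1 (log2 fold change 1.55, limma adjusted p = 0.301). MT-TG, for glycine, had at most 1 read in a siNT library and at most 4 in a siHKlincR1 library. At this depth no fold change of MT-TC or MT-TG can be given with confidence.

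Of the 22 tRNA genes, 19 passed the filter on low RPKM, and 14 of these had a log2 fold change above 0. Limma called none without the block or with voom. Over all tested genes it called 0.362% without the block and 1.32% with it. At an unadjusted p under 0.05, 3 of the 19 were higher without the block (7.04% of all tested genes) and 9 with it (12.3%). The groups did not overlap for MT-TC, MT-TS1 and MT-TT, all higher with siHKlincR1 (10.1% of all tested genes). MT-TV, the valine tRNA gene between the rRNA genes, was called with the replicate block (log2 fold change 0.80, limma adjusted p = 0.0388, and 0.330 without the block). It had 12, 5 and 7 reads with siNT and 19, 10 and 14 reads with siHKlincR1. Its SE was 0.10 with the block and 0.42 with voom on the reads (voom adjusted p = 0.370). The call with the block thus rests on few reads and is not secure. MT-TV, MT-TS1 and MT-TT fall outside the rule for named genes and were picked with their values in view.

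**Figure D4:**
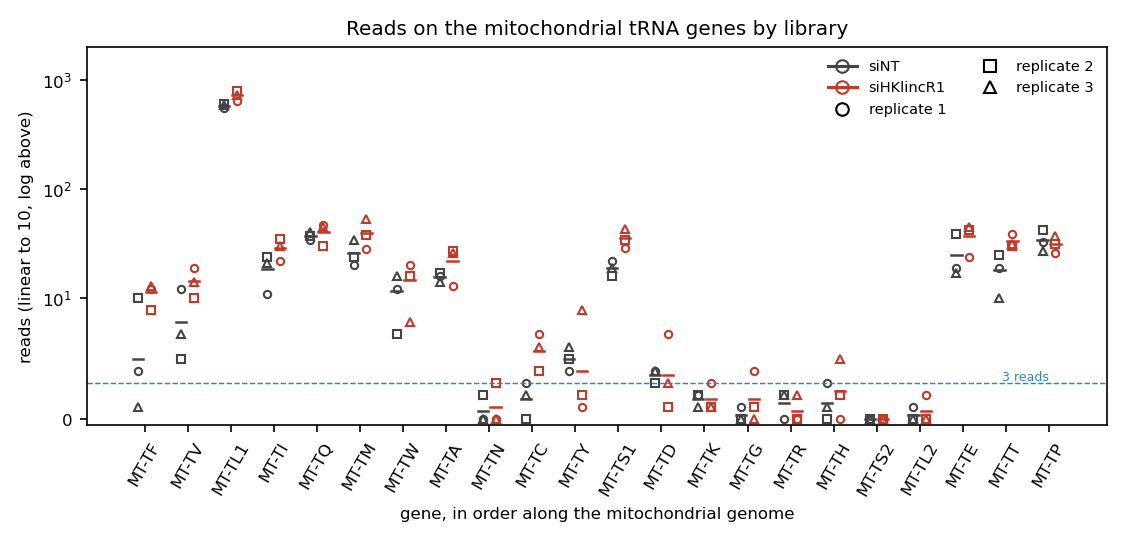
Reads on each of the 22 tRNA genes in their order along the mitochondrial genome, with 1 point per library, a line at the group mean and a dashed line at 3 reads (axis linear to 10 reads and logarithmic above). MT-TL1 stands alone at 557 to 796 reads, and every other gene has at most 53.

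Copies of mitochondrial genes in the nuclear genome can draw reads of the same RNA. Of 394 listed genes with the names of such copies, 72 were above 0 RPKM, and together they took 2.65% to 2.98% of the reads on mitochondrial genes and copies in the 6 libraries. MTATP6P1, a copy of MT-ATP6 on chromosome 1 (569076 to 569756, plus strand), was the highest. It is 98.53% identical to MT-ATP6, with 10 mismatches over 681 bases, and 170 of its 607 windows of 75 bases, the length of a read, are identical to the gene. One mismatch is shown in capitals below.
MT-ATP6 (chrM:8530-8560, plus strand): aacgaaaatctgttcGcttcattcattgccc
MTATP6P1 (chr1:569079-569109, plus strand): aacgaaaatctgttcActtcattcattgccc

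MTATP6P1 had 1048, 1042 and 1254 RPKM with siNT and 1129, 1233 and 1620 RPKM with siHKlincR1 (log2 fold change 0.24, limma adjusted p = 0.441), beside 0.25 for MT-ATP6. It held 18.8% to 19.9% of the reads of the gene and copy together in each library, so this share was nearly the same in both groups. MTCO1P12, a copy that is 98.7% identical to MT-CO1, had 89.0, 75.0 and 78.8 RPKM with siNT and 105, 101 and 118 RPKM with siHKlincR1 (log2 fold change 0.41, limma adjusted p = 0.140). MTND2P28, MTND4P12 and MTATP8P2 had means of 178, 29.4 and 24.6 RPKM over all libraries, with log2 fold changes of 0.04, 0.17 and 0.08. Of the 26 tested copies, 23 had a log2 fold change above 0, and limma called none with or without the block or with voom. The shares called over all tested genes were 1.32% with the block and 0.362% without it. At an unadjusted p under 0.05, 6 copies were higher without the block (7.04% of all tested genes) and 6 with it (12.3%). Reads of such copies and of their mitochondrial parents cannot be assigned with certainty where the sequences match.

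The nuclear genes of the same complexes had log2 fold changes near 0. Of 78 listed subunits of complexes I to V, 77 were tested, 48 had a log2 fold change above 0 and 29 below, with a median of 0.02. Limma called 0 of them with or without the replicate block, beside 1.32% and 0.362% of all tested genes. At an unadjusted p under 0.05, 4 of the 77 were higher and 2 lower, beside 7.04% and 9.19% of all tested genes, and voom on the reads gave no call. The medians were 0.03 for the nuclear subunits of complex I, -0.02 for complex II, 0.0005 for complex III, 0.04 for complex IV and 0.02 for complex V, beside 0.24 for the complex I mRNAs, 0.26 for the complex IV mRNAs and 0.27 for the complex V mRNAs of the mitochondrial genome. No test was made of the difference between the 2 sets of genes.

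**Figure D5:**
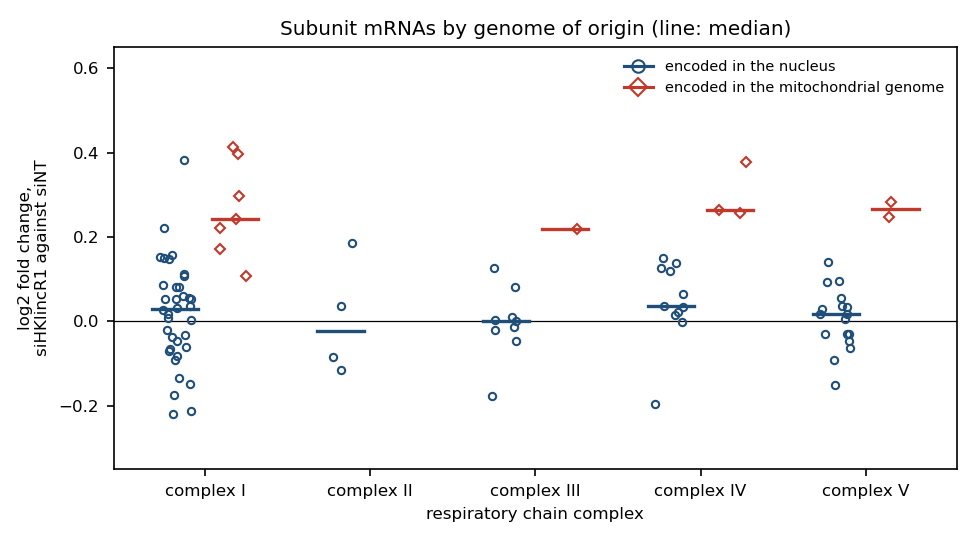
Each point is limma's log2 fold change (siHKlincR1 against siNT) of a subunit mRNA of complexes I to V, in blue for nuclear and in red for mitochondrial genes, with a line at the median. The nuclear medians lie between -0.02 and 0.04 and the mitochondrial points between 0.11 and 0.41, where 1 gene stands for complex III and none for complex II.

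Single nuclear subunits with the largest log2 fold changes lay in both directions. NDUFA8, an accessory subunit of complex I, had 51.4, 49.2 and 53.3 RPKM with siNT and 43.2, 41.0 and 48.0 RPKM with siHKlincR1 (log2 fold change -0.22, limma adjusted p = 0.260). SDHB, the iron-sulfur subunit of complex II, had 41.9, 42.6 and 42.3 RPKM with siNT and 50.1, 46.8 and 47.5 RPKM with siHKlincR1 (log2 fold change 0.18, limma adjusted p = 0.231). The groups did not overlap for these genes. COX6B1 of complex IV (-0.20), UQCR11 of complex III (-0.18), ATP5F1A of complex V (-0.15) and NDUFA3 of complex I (0.22) also stayed above an adjusted p of 0.05. NDUFA13 had the largest value of the list (0.38) at a mean of 0.952 RPKM. The other subunits named by the rule lay between -0.12 and 0.15, namely SDHC (-0.12), SDHA (-0.08), UQCRB (0.08), ATP5F1D (0.10), UQCRC2 (0.13), COX6C (0.14), ATP5ME (0.14) and COX6A1 (0.15).

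Nuclear genes that maintain, transcribe and process the mitochondrial genome were examined next, together with mitochondrial chaperones, proteases and biogenesis regulators. Of 80 listed genes, 78 were found and 76 tested, of which 45 had a log2 fold change above 0 and 31 below, with a median of 0.03. Limma called 0 of them without the replicate block, as did voom on the reads, and with the block it called MYC, a biogenesis regulator. The shares called over all tested genes were 0.362% without the block and 1.32% with it. At an unadjusted p under 0.05, 10 of the 76 were higher and 1 lower without the block, beside 7.04% and 9.19% of all tested genes. Of these 10, 3 were chaperones or proteases and 1 was a biogenesis regulator. With the block 14 of the 76 were higher and 7 lower, beside 12.3% and 14.0%. The medians were 0.10 for 16 genes of mitochondrial DNA maintenance, 0.03 for 9 of transcription, -0.02 for 28 of RNA processing and stability, 0.06 for 16 chaperones and proteases and 0.05 for 8 regulators of mitochondrial biogenesis.

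The core transcription machinery had log2 fold changes near 0. POLRMT, the mitochondrial RNA polymerase, had 9.64, 8.75 and 10.5 RPKM with siNT and 10.1, 9.00 and 9.68 RPKM with siHKlincR1 (log2 fold change 0.0005). TFAM, which packages the genome and starts transcription, had 19.57, 20.01 and 19.49 RPKM with siNT and 19.53, 18.19 and 20.26 RPKM with siHKlincR1 (log2 fold change -0.03). For the elongation factor TEFM the value was 0.08. These groups overlapped (limma adjusted p = 0.998, 0.848 and 0.672), as did those of the termination factor MTERF1 (-0.08). TFB1M, which methylates the small-subunit rRNA, had 6.51, 5.92 and 5.27 RPKM with siNT and 8.44, 7.67 and 6.80 RPKM with siHKlincR1 (log2 fold change 0.37, limma adjusted p = 0.227, and 0.0492 with the block at a fold under 1.5).

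Of the 28 factors that act on the RNA itself, 3 had groups that did not overlap with siHKlincR1 higher (LRPPRC, SUPV3L1 and PTCD2) and 2 with siHKlincR1 lower (FASTKD5 and FASTKD3), beside 10.1% and 11.9% of all tested genes. SUPV3L1, the helicase of the mitochondrial RNA degradosome, had 17.2, 16.8 and 17.5 RPKM with siNT and 22.7, 21.6 and 20.8 RPKM with siHKlincR1 (log2 fold change 0.33, SE 0.06, limma adjusted p = 0.101). LRPPRC, which binds and stabilises the mRNAs, had 45.79, 46.96 and 43.98 RPKM with siNT and 52.86, 52.28 and 52.82 RPKM with siHKlincR1 (log2 fold change 0.21, SE 0.06, limma adjusted p = 0.196). For its partner SLIRP the log2 value was -0.09 (limma adjusted p = 0.714). FASTKD5, which acts in the processing of mitochondrial mRNAs, had 12.8 ± 1.49 RPKM with siNT and 10.9 ± 0.642 RPKM with siHKlincR1 (SD, n = 3, with a log2 fold change of -0.23 and limma adjusted p = 0.314). FASTKD3 had -0.15 and PTCD2 0.23 (limma adjusted p = 0.397 and 0.305), and these 3 genes were named after their values were seen. PUS1 and TRIT1, enzymes that modify tRNAs, had values of 0.28 and 0.25 (limma adjusted p = 0.259 and 0.330).

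Of the genome maintenance genes, TOP1MT, the mitochondrial topoisomerase, had 7.92, 8.15 and 7.71 RPKM with siNT and 10.9, 11.7 and 9.27 RPKM with siHKlincR1 (log2 fold change 0.41, limma adjusted p = 0.158). The groups did not overlap. POLG2, the accessory subunit of the DNA polymerase, had 0.31, and the nuclease MGME1 had -0.22 (limma adjusted p = 0.328 and 0.292).

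MYC, a transcription factor whose targets include genes of mitochondrial biogenesis, had 111, 114 and 93.5 RPKM with siNT and 185, 187 and 116 RPKM with siHKlincR1 (log2 fold change 0.59, SE 0.19, limma adjusted p = 0.237, and 0.0493 with the block). LONP1, the protease of the mitochondrial matrix, had 51.8, 50.0 and 48.2 RPKM with siNT and 75.6, 81.0 and 58.8 RPKM with siHKlincR1 (log2 fold change 0.51, SE 0.12, limma adjusted p = 0.158, and 0.0527 with the block). In both genes the groups did not overlap, and siHKlincR1 replicate 3 was the lowest of the 3 knockdown libraries, where it was the highest for all 13 mitochondrial mRNAs. Without siHKlincR1 replicate 3 limma called both (adjusted p = 0.0223 for MYC and 0.0173 for LONP1). The chaperones HSPA9 (log2 fold change 0.29) and DNAJA3 (0.21) stayed above an adjusted p of 0.05 (limma, 0.184 and 0.231), as did the regulators GABPB1 (0.14) and YY1 (-0.15).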

How the data were processed

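RNA from 6 H460 samples was sequenced by the authors as paired 75 base reads on poly(A)-selected, strand-specific libraries. The submitters' processing notes name CASAVA 1.8.2 and featureCounts on hg19/GRCh37, and the gene models were those of Ensembl. The aligner, the use of strand, and whether reads or pairs were counted are not given in the sources used here. The authors deposited RPKM values for 57773 genes, not pooled. Library totals and reads were worked back from them. Where the annotated gene length did not give whole reads (tolerance 0.001 reads), the smallest length that did was used. All nonzero values thus came out whole, which is no check for such genes. By the size of the read counts, counting error is small for the mRNAs and large for most tRNAs.

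Differences were tested with limma 3.58.1 in R 4.3.3 (lmFit, eBayes with trend) on log2(RPKM + 0.1), which understates changes of low genes, for 15451 genes averaging 0.5 RPKM or more over the libraries. P-values were adjusted by Benjamini-Hochberg over all of them, and calls needed an adjusted p under 0.05 and a fold above 1.5. Shares and ratios were compared by exact permutation over libraries, two-sided. Deviations from group means correlated across genes at 0.142, 0.137 and 0.266 for same-numbered libraries and at -0.209 to 0.113 for differently numbered ones. A replicate block was therefore fitted as an alternative and is given beside the results it changed. The sources used here do not say that equal numbers share a batch or culture. The steps were tested on simulated data. Sequences are from GRCh37 with GENCODE 44.

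The genes and lists were chosen with earlier results of these data known. Named were all mitochondrial mRNAs and rRNAs, the 5 highest tRNAs and the 3 with the largest change, up to 3 genes per nuclear list by size of change with TFAM, POLRMT, TEFM, LRPPRC and SLIRP, and the 5 highest nuclear copies. Alternatives changed the pseudocount, filter, scaling, variance model and block, used voom on the reads, and left out each library in turn.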

Additional observations from a re-analysis of the deposited data

How the results depend on the processing

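The number of mitochondrial mRNAs called stayed at 0 and their median log2 fold change above 0 under each alternative run, and leaving out each library in turn moved the median between 0.14 and 0.35. The number of genes called over all tested genes, 56, became 17 without the variance trend, 89 with voom on the reads, 204 with the replicate block, 186 with the block and an equal nuclear RPKM total (an alternative added after seeing the data), and 7 to 520 when each library was left out in turn, with the highest number without siHKlincR1 replicate 3. The cause was not tested. Among the listed nuclear factors, chaperones, proteases and biogenesis regulators, 0 were called. This number became 1 with the replicate block, with or without an equal nuclear RPKM total, and 0 to 2 when a library was left out. The difference in the mitochondrial share of total RPKM ranged from 1.47 to 3.14 percentage points over the libraries left out, and the log2 difference of the rRNA to mRNA ratio from -0.289 to 0.0424, the last without siHKlincR1 replicate 3.

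With the replicate block, the pairing gave the share difference of 2.49 percentage points an exact sign-flip p of 0.25, the smallest that 3 pairs allow. Beyond the calls of MT-TV and MYC and the adjusted p of MT-ND3, MT-TM, TFB1M and the marker COL3A1 given above, the block took no other gene of the members and lists across an adjusted p of 0.05. As each library was left out in turn, the sign of the log2 fold change turned for MT-ND5 (range -0.0581 to 0.2128), MT-TQ (-0.0954 to 0.2383), TFAM (-0.0625 to 0.0149), POLRMT (-0.0650 to 0.0624), SLIRP (-0.1725 to 0.0131), MTND2P28 (-0.0784 to 0.1639) and MTATP8P2 (-0.0726 to 0.2097), whose values with all libraries lay within 0.11 of 0. Other scalings moved the median of all tested genes by less than 0.01. The reads limit the tRNA values, and 3 libraries a group limit the rest.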
